A study of Mus musculus with 3 samples.

Results

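TM8 is a group of mesenchymal cells of the uvea, the pigmented middle coat of the eye that holds the iris, the ciliary body and the choroid. It is one of 11 clusters, TM1 to TM11, that the authors drew among cells close to the trabecular meshwork (TM), and its members are the cells that carry the TM8 label in the deposited cluster tables. There were 1358 TM8 cells among 26008 kept cells: 591 in control 1, 612 in control 2 and 155 in *Angpt1*ΔNC. The clusters set beside it were TM6 with 253 cells, TM7 with 1580 and TM9 with 829. TM8 expressed *Pdgfrb*, the receptor for PDGF-B that marks perivascular and stromal mesenchyme, in more than 50% of its cells in every library.

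The study sequenced single cells of the dissected limbal and iridocorneal angle region at 6 weeks of age. The 2 control libraries came from *Angpt1* flox/flox mice and the 1 *Angpt1*ΔNC library from *Angpt1* flox/flox;Wnt1Cre+ mice, so both groups carried the floxed alleles and only the mutants carried Cre. Wnt1Cre drives recombination in the neural crest and its descendants, which form most of the stroma of the front of the eye. All mice were of mixed strain, crossed for 2 generations onto ICR to obtain albino litters, and each library was 1 pool of 4 to 6 eyes from 2 to 3 mice. With 1 mutant pool there is no mutant replicate, and genotype cannot be told apart from anything else that set that pool apart.

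As background, the iridocorneal angle drains aqueous humor through the TM into Schlemm's canal, a vessel whose endothelium carries the receptor TEK. Angiopoietin 1, a TEK ligand secreted by mesenchymal cells beside the vessel, is needed for the canal to form, and its loss causes congenital glaucoma in mice and in people. Uveal stromal cells lie next to the outflow tissue, surround the vessels of the iris and ciliary body, and secrete matrix, chemokines and growth factors.

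TM8 cells held a median of 3933 UMIs in control 1, 4282.5 in control 2 and 4846 in *Angpt1*ΔNC, and the summed counts were 2426661, 2738273 and 829925 UMIs. Median genes per cell were 1565, 1623 and 1667, and the median mitochondrial share was 3.35%, 4.44% and 4.80%. The kept cells of the libraries shared 13 to 25 barcodes between pairs, and 0 of these were TM8 in both. The labels state that males and females were pooled, but the libraries differed in this: *Xist*, the RNA of the inactive X chromosome, was found in 0 of 591 and 0 of 612 control TM8 cells and in 125 of 155 mutant TM8 cells (80.6%, exact 95% interval 73.5% to 86.5%). Among all kept cells of the mutant library 58.7% had an *Xist* UMI. Cells typed as male (Y-linked UMIs and no *Xist*) were 68.4% and 73.0% of control TM8 cells and 13.5% of mutant TM8 cells, that is 21 cells, so genotype and sex cannot be told apart in the sums. Where a call on a named gene was lost or turned in male-typed cells, this is said beside it.

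TM8 made up 6.51% of kept cells in control 1 (exact 95% interval 6.01% to 7.04%), 6.02% in control 2 (5.57% to 6.50%) and 2.29% in *Angpt1*ΔNC (1.95% to 2.67%). The intervals cover counting error only. These shares are given with no direction, since 4 of the 15 genes that led TM8 (*Ccl11*, *Hilpda*, *Rap2a* and *Fam107b*) were themselves lower in the mutant cells and the cluster label was drawn from such genes. Of TM6 to TM9 cells, TM8 held 37.5%, 35.2% and 22.0%. TM8 and TM9 together made up 8.76%, 8.96% and 7.12% of kept cells.

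*Angpt1*, the deleted gene (GRCm38, chr15:42424723-42676977, minus strand), was absent from the mutant TM8 counts. It had a UMI in 226 of 591 cells of control 1 (38.2%, exact 95% interval 34.3% to 42.3%), in 254 of 612 cells of control 2 (41.5%, 37.6% to 45.5%) and in 0 of 155 mutant cells. For the share of mutant cells with a UMI the exact interval reaches 2.35%, and a floor of 3 cells is 1.94%. The summed counts were 338, 442 and 0 UMIs, at least 37.8-fold lower in the mutant when 3 UMIs are set as the floor of that library. Surface epithelium, which should lack the gene, had it in 3 of 989, 5 of 1012 and 0 of 911 cells, so the control shares in TM8 were far above the background of free RNA. In the neighbours the control shares were 59.7% and 62.0% in TM7, 58.0% and 48.4% in TM6 and 31.9% and 37.2% in TM9. With each cell thinned to 2000 UMIs, which left out 1 to 26 cells per cluster and library, the control shares were 21.2% and 25.8% in TM8, 34.8% and 31.8% in TM7, 38.5% and 27.8% in TM6 and 18.8% and 15.1% in TM9. By value TM8 lay above TM9 and below TM6 and TM7 in both controls.

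*Pdgfrb* did not pass the genotype test in TM8. It was found in 53.3%, 56.2% and 56.8% of TM8 cells in control 1, control 2 and *Angpt1*ΔNC, against under 1% of surface epithelium cells in every library. Its level, the mean over cells of UMIs per 10000, was 2.39, 2.34 and 2.51 in TM8, and the log2 change by edgeR was 0.25 ± 0.19 (SE, adjusted p = 0.55). In TM9 it was 2.86, 2.61 and 1.38, a fall by edgeR (log2 change -0.91, adjusted p = 0.00187), and in TM7 it was 1.65, 1.58 and 1.04 (log2 change -0.64, adjusted p = 0.0833). The test of the difference itself, limma on log2 CPM (counts scaled to a common library total) of TM8 minus the mean of TM6, TM7 and TM9 in each library, gave 0.79 ± 0.14 (SE, adjusted p = 0.0356). That call was lost when low-count genes were kept in the test.

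**Figure D1:**
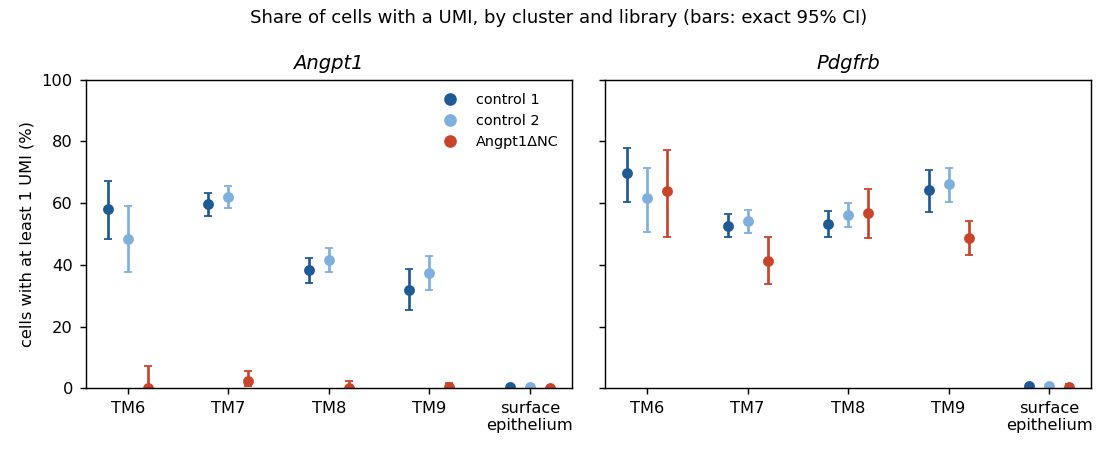
Percent of cells with at least 1 UMI of *Angpt1* and of *Pdgfrb* (vertical axes) in TM6, TM7, TM8, TM9 and surface epithelium, with 1 point per library and exact 95% intervals. *Angpt1* lies at 38.2% and 41.5% in the control TM8 cells and at 0 in the mutant ones, while *Pdgfrb* lies between 53.3% and 56.8% in all 3 libraries.

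The other uveal stroma markers were present too. All 8 were found in over 10% of TM8 cells in both controls and 7 of 8 in *Angpt1*ΔNC, where *Angpt1* was at 0. Their summed level was 72.8, 70.8 and 39.3 UMIs per 10000, and most of it was *Igfbp4*, which encodes a secreted binding protein of insulin-like growth factors, at 48.4, 45.3 and 22.6. Of the 8 markers, *Angpt1*, *Igfbp4* (log2 change -0.94) and *Cygb*, a globin of stromal cells (-1.09), fell with genotype by edgeR and the other 5 did not pass. *Foxc1*, a transcription factor of the anterior segment whose mutations cause glaucoma, was at 1.80, 2.29 and 2.16. Summed levels of other cell types' markers were below that of the uveal stroma list in every library. They were 5.57, 4.35 and 1.26 for 7 pericyte genes and 1.99, 2.1 and 5.42 for 6 smooth muscle genes, the largest such sum in the mutant cells. Adventitial fibroblast genes summed to 3.49, 4.46 and 2.17, TM genes to 2.11, 4.04 and 0.803, keratocyte genes to 2.13, 2.27 and 2.27 and corneal endothelial genes to 1.89, 2.04 and 1.41. The other sums were at most 1.07: melanocyte 0.700 to 1.07, surface epithelium 0.648 to 1.01, pigment and ciliary epithelium 0.0572 to 0.392 and glia 0.124 to 0.166. Endothelial genes were at 0.111, 0.0933 and 0.228 and leukocyte genes at 0.371, 0.411 and 0.792, highest in the mutant. The endothelial genes *Pecam1*, *Cdh5*, *Kdr* and *Cldn5* had 0 UMIs in the mutant TM8 cells. *Myoc*, a marker of the TM proper, was at 0.286, 0.293 and 0.152 in TM8 and at 8, 10.5 and 3.18 in TM7.

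TM8 lay nearest to TM9 over 1709 genes, those found in at least 25% of TM8 cells of every library. Over these genes, Pearson's r of log levels was 0.965 to 0.972 with TM9 in the 3 libraries, 0.934 to 0.948 with TM7 and 0.856 to 0.886 with TM6. Genes are not replicates, and the clusters were drawn from the same genes, so these values and those of the next paragraphs are a description with no test.

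Of 1709 genes found in at least 25% of TM8 cells of every library, 217 (12.7%) had a level above TM6, TM7 and TM9 in all 3 libraries, and 107 (6.26%) had one below all of them. The margin was small for most: 2 genes, *Ccl11* and *Hilpda*, were at least 2-fold over the highest neighbour on average. *Ccl11* encodes eotaxin, a chemokine that draws eosinophils through CCR3. Its level was 34.5 in control 1, 27.7 in control 2 and 7.95 in *Angpt1*ΔNC. In TM9, the highest neighbour, it was 14, 8.81 and 2.73, so TM8 was above TM9 in each library while the mutant TM8 level lay below that of control TM9. The gene was unevenly spread over TM8 cells. It was found in 51.4%, 51.8% and 28.4% of them, and the tenth of cells with the most held 64.1%, 60.8% and 86.4% of its UMIs.

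*Hilpda*, a lipid droplet protein induced by low oxygen that inhibits the lipase ATGL, was at 4.56, 4.84 and 2.02 in TM8. The neighbours lay between 0.163 and 1.66, and all 3 TM8 libraries were above that range. The other genes that led TM8 had lower ratios. *Ednra*, the endothelin A receptor, was at 2.18, 2.23 and 1.55 in TM8 and at 1.32, 1.37 and 0.685 in TM9. *Furin*, a convertase that cleaves proproteins in the Golgi, was at 1.74, 1.65 and 1.73, with all neighbours below 1. *Rdh10*, the enzyme that oxidises retinol to retinal, was at 5.90, 6.00 and 4.80 against 4.21, 4.25 and 2.01 in TM9. *Alpl*, tissue-nonspecific alkaline phosphatase, was at 3.79, 4.65 and 3.44 and above every neighbour in each library. *Phf11d*, *Rap2a*, a small GTPase, and *Usp53*, a ubiquitin protease family member, were at 1.27, 1.19 and 1.75, at 1.81, 1.87 and 0.784 and at 1.78, 1.55 and 1.17, above every neighbour in each library. Of these *Rap2a* fell with genotype by edgeR (log2 change -1.08 ± 0.23, adjusted p = 0.0251), a call lost with DESeq2.

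**Figure D2:**
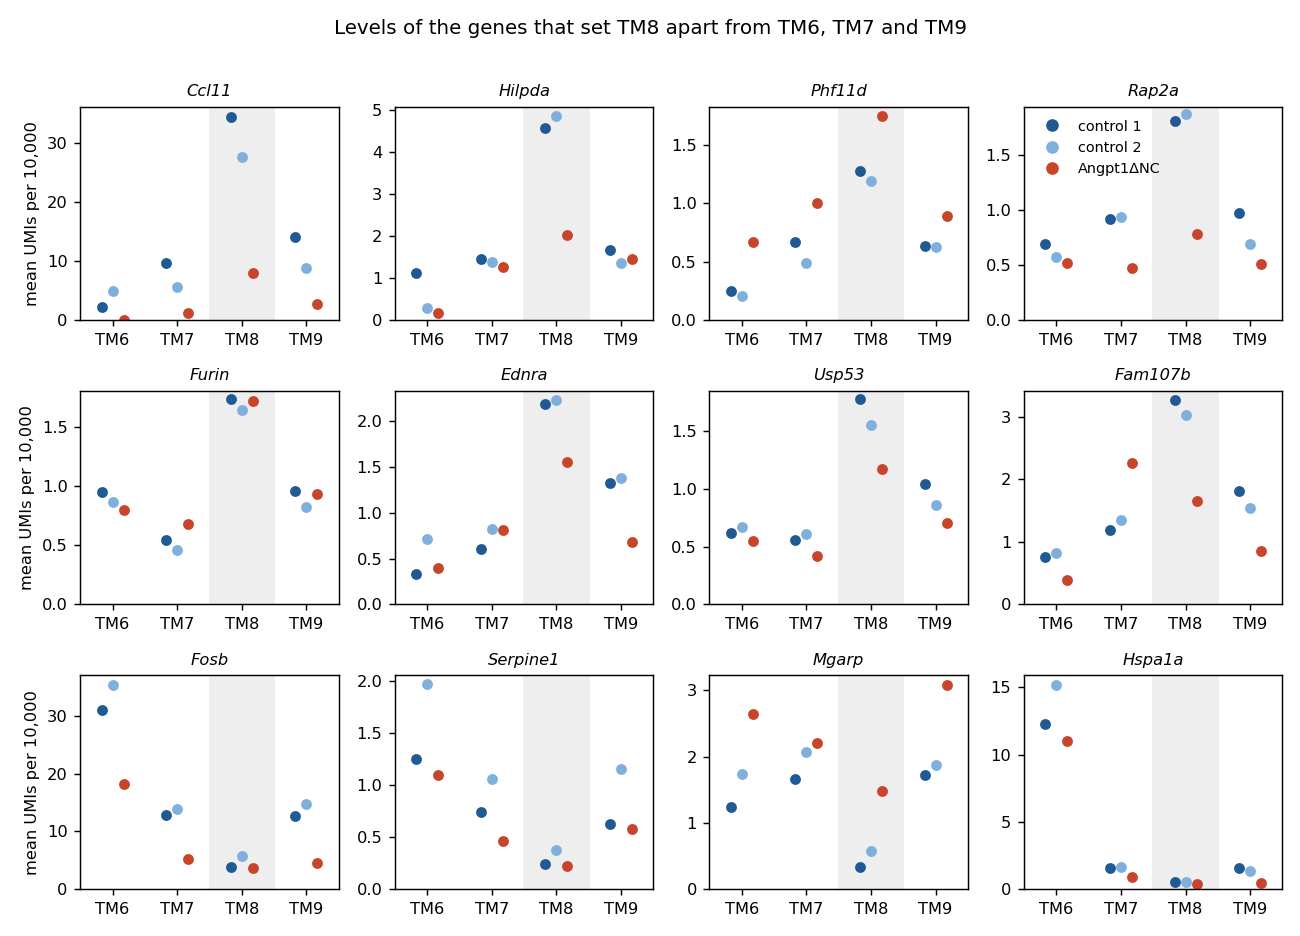
Levels (mean over cells of UMIs per 10000, vertical axes from 0) of 12 genes that set TM8 apart, 8 higher and 4 lower, in TM6, TM7, TM8 and TM9, with 1 point for each of the 3 libraries. *Ccl11* and *Hilpda* show the widest gaps between TM8 and its neighbours, and *Fosb* and *Hspa1a* lie lowest in TM8.

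*Tcf21* and *Kcnj8* fell outside the 25% limit because of the mutant library, and they were singled out after their values were seen. *Tcf21*, a basic helix-loop-helix factor of fibroblast and pericyte precursors (GRCm38, chr10:22817281-22820174), was at 3.46 and 2.17 in control TM8 cells and at 0.119 in mutant ones. *Kcnj8*, the pore subunit of the ATP-sensitive potassium channel of mural cells (chr6:142564837-142571614), was at 3.30, 2.27 and 0.418. Both were above TM6, TM7 and TM9 in each of the 3 libraries. Of 7 pericyte markers, *Kcnj8* among them, 4 were found in over 10% of TM8 cells in both controls and 2 in *Angpt1*ΔNC. *Higd1b*, another of them, was at 0 in every library, in TM8 as in TM6, TM7 and TM9. *Rgs5* was at 0.573, 0.623 and 0.0498 in TM8. Of control TM8 cells, 35% and 25.8% had *Tcf21*, and 135 and 110 cells had both *Tcf21* and *Ccl11*, which is 1.27 and 1.34 times the product of the separate shares. For *Tcf21* with *Rgs5* this ratio was 0.65 and 0.70, on 16 and 12 cells. Deeper cells show more of both genes in any pair, so these ratios are a description.

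Several immediate early and heat shock genes had their lowest level in TM8. *Fosb*, an AP-1 subunit, was at 3.80, 5.78 and 3.57 in TM8, at 31.0, 35.4 and 18.2 in TM6, at 12.8, 13.8 and 5.15 in TM7 and at 12.7, 14.7 and 4.55 in TM9. TM8 was the lowest of the 4 in every library. *Fos*, its relative, was at 1.78, 1.64 and 1.24 in TM8 and at 113, 74.1 and 45.8 in TM6. Of 10 immediate early genes in at least 25% of TM8 cells, *Fosb*, *Fos* and *Jund* were below all neighbours in all 3 libraries, 7 were not, and 0 were above all of them. Of 6 heat shock genes so detected 2, *Dnaja1* and *Hspa8*, were below all neighbours, and over all genes that share was 6.26%. *Hspa1a*, an inducible HSP70 chaperone, was at 0.521, 0.495 and 0.363 in TM8 and at 12.3, 15.1 and 11 in TM6. Such genes respond to tissue dissociation, and the part of handling in these differences was not tested. *Cryab*, a small heat shock protein, was at 3.27, 4.08 and 11.3, below TM7 (16.7, 21.2 and 15.1) in each library. *Mgarp*, a mitochondrial protein also used as a keratocyte marker, was at 0.327, 0.566 and 1.48 and lowest of the 4 clusters in each library. Both rose with genotype in TM8 by edgeR, *Cryab* by 1.84 ± 0.19 (adjusted p = 0.00027) and *Mgarp* by 1.98 ± 0.29 (adjusted p = 0.00319) on the log2 scale.

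The genotype comparison asked which genes differed between mutant and control TM8 cells, with UMI counts summed over the cells of each library. Of 9613 genes tested with edgeR's quasi-likelihood test, 189 (1.97%) were higher and 155 (1.61%) lower in *Angpt1*ΔNC at an adjusted p under 0.05. The shares of 1.97% and 1.61% are the ones to set beside the counts of called list members below. The median log2 change of all tested genes was -0.03. With male-typed cells alone the counts were 105 and 152, resting on 21 mutant cells, and DESeq2 called 66 and 56. Not every call lost with DESeq2 is marked beside its gene. In TM6, with 50 mutant cells, even *Xist* (log2 change 10.8) and the deleted *Angpt1* (-9.54) did not pass by edgeR. A TM6 value that did not pass therefore does not show that a change was absent there. Values below are CPM after TMM normalisation, for control 1, control 2 and *Angpt1*ΔNC in that order, and each log2 change is mutant minus control with its SE.

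The osteopontin gene *Spp1*, a secreted phosphoprotein of matrix and inflammation (GRCm38, chr5:104435118-104441050), was at 1172, 1445 and 7791. The mutant library lay above both controls by several fold (log2 change 2.57 ± 0.15, adjusted p = 3.67e-06). It was found in 47.7%, 57.8% and 91.6% of TM8 cells, and the level among positive cells was 24.9, 24.8 and 75.7 UMIs per 10000. In male-typed cells the change was 0.60 and did not pass.

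*Il11ra1*, the receptor of interleukin 11, was at 26.7, 29.5 and 297 (log2 change 3.40 ± 0.21, adjusted p = 3.67e-06). *Lif*, a cytokine of the interleukin 6 family, was at 194, 297 and 931 (1.92 ± 0.23, adjusted p = 0.000609). Both rose in TM9 too, by 2.89 and 1.61 on the log2 scale. *Il11ra1* also rose in TM7 (3.20), while its 2.22 in TM6 and the 0.67 of *Lif* in TM7 did not pass. Outside the stroma, *Il11ra1* was found in 2.93%, 2.67% and 12.3% of surface epithelium cells of control 1, control 2 and *Angpt1*ΔNC. *Il11*, the ligand, was at 500, 536 and 1113 in TM8 (1.10 ± 0.17, adjusted p = 0.00373), but its log2 change was -0.15 in male-typed cells.

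*Tagln*, an actin-binding protein of smooth muscle and activated fibroblasts, was at 43.5, 44.7 and 355 (3.01 ± 0.20, adjusted p = 6.57e-06). *Gbp2b*, an interferon-inducible GTPase, was at 11, 7.27 and 224 (4.61 ± 0.25, adjusted p = 2.90e-06), and in 51.0% of mutant cells against 4.57% and 2.94% of control cells. Both rose in male-typed cells too. They also rose in TM7 and TM9, *Gbp2b* by 4.03 and 3.90 and *Tagln* by 1.68 and 2.07 on the log2 scale. In TM6, where even *Xist* did not pass, the 1.21 of *Tagln* did not pass either. *Gbp2b* was found in 0.607%, 0.296% and 15.9% of surface epithelium cells of control 1, control 2 and *Angpt1*ΔNC. Of the 6 smooth muscle markers, *Tagln* and *Des*, an intermediate filament of muscle, rose, while *Acta2*, smooth muscle actin, was at a level of 0.561, 0.551 and 0.827 and did not pass. *Actg2* had 0 UMIs in every library, and *Cnn1*, at 0 in the mutant cells, was at 0.005 and 0.0136 in the controls.

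Other genes with small p rested on few cells. *Mmp3*, stromelysin, was at 9.42, 5.45 and 221 (4.89 ± 0.27, adjusted p = 2.90e-06), but only 10 mutant cells held it and 1 of them held 61 of the 171 UMIs. *Esm1*, a proteoglycan best known from endothelium, was at 7.06, 12.7 and 185 (4.20 ± 0.28, adjusted p = 8.21e-06) in 13 mutant cells, and its log2 change was -0.64 in male-typed cells. For *Hba-a2*, a globin of red cells, 1 mutant cell held 722 of 727 UMIs, and DESeq2 did not call it. *Xist* had 0, 0 and 1169 UMIs, at least 1284-fold higher in the mutant, and *Ddx3y*, a Y-linked helicase, was at 213, 239 and 37.5. Both are sex-linked, and *Ddx3y* did not pass in male-typed cells (log2 change -0.58).

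Among genes that fell, *Tcf21* was at 312, 199 and 9.05 (log2 change -4.81 ± 0.45, adjusted p = 0.000106). Only 3 of 155 mutant cells (1.94%) had it, against 207 of 591 and 158 of 612 control cells. Its level was 0 in mutant TM6, TM7 and TM9, from 0.176 to 1.28 in the controls. *Kcnj8* was at 292, 202 and 34.9 (-2.82 ± 0.32, adjusted p = 0.000478). In TM9 the level of *Kcnj8* was 0.246, 0.303 and 0.215, and its log2 change of -0.08 did not pass.

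*Rbp4*, the retinol carrier of plasma, was at 422, 408 and 78.8 (log2 change -2.39 ± 0.22, adjusted p = 0.000106). Its share of positive cells was 54.0%, 56.5% and 16.8%. TM7 changed by -3.45 (adjusted p = 0.0026), and TM9 by 0.16, which did not pass (adjusted p = 0.695). *Igfbp3*, another binding protein of insulin-like growth factors, was at 488, 246 and 32.3 (-3.50 ± 0.45, adjusted p = 0.00103), with the controls apart from each other but both above the mutant. *Cmc2*, a mitochondrial protein of cytochrome oxidase assembly, was at 133, 124 and 6.46 (-4.30 ± 0.38, adjusted p = 7.61e-05).

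*Gm10260*, *BC023719*, *H2-Q6* and *C1s2* fell in TM8 and had negative log2 changes in all 3 neighbours too. *Gm10260*, a predicted gene, was at 194, 260 and 0 (at least 58.6-fold lower). *C1s2*, a complement serine protease, was at 63.6, 58.2 and 0 (at least 15.7-fold lower). *BC023719* had 2 mutant UMIs, 53.7-fold lower with a counting interval of 14.9 to 443. *H2-Q6*, a class I histocompatibility gene, was at 126, 157 and 9.05 (log2 change -3.96 ± 0.38), and reads of the near-identical *H2-Q* genes may be split between them. Outside the stroma, *Gm10260* was found in 99.4%, 99.8% and 5.27% of surface epithelium cells of control 1, control 2 and *Angpt1*ΔNC. There *BC023719* was found in 25.9%, 25.3% and 0% of cells and *H2-Q6* in 21.133%, 16.996% and 0.768%. The lower mutant values of *Gm10260*, *BC023719* and *H2-Q6* were thus not limited to the stroma. *C1s2* was rare in that epithelium in every library (1.01%, 0.988% and 0%). The mice were of mixed strain, and its part in these values was not tested.

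**Figure D3:**
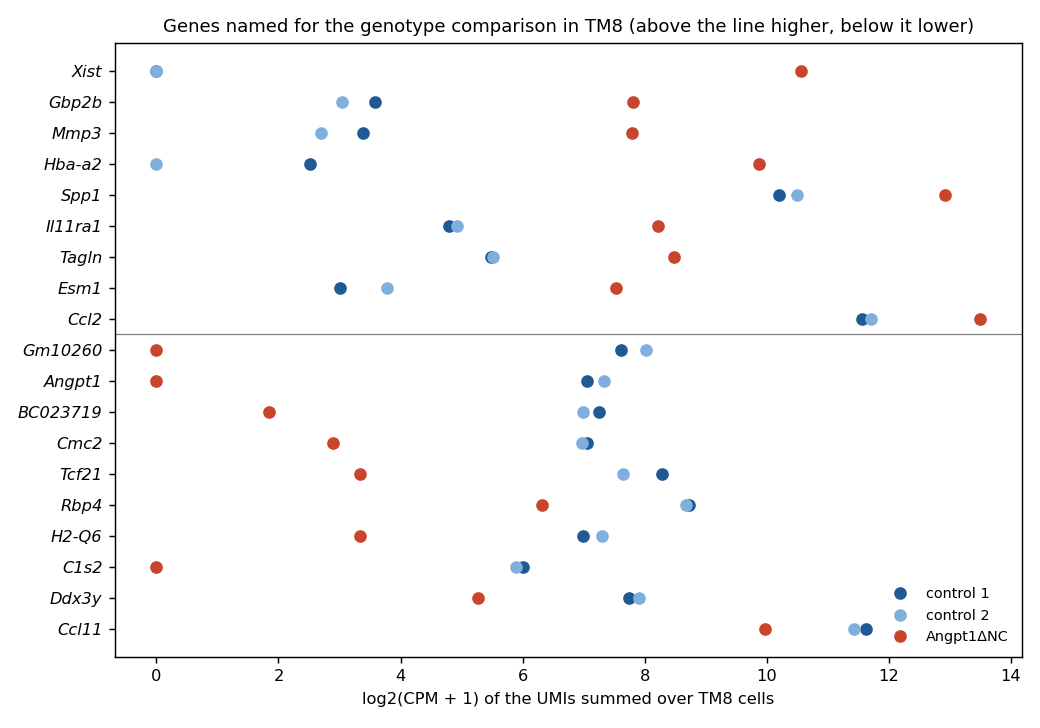
Log2 of CPM plus 1 (horizontal axis) in control 1, control 2 and *Angpt1*ΔNC TM8 sums, for genes with the smallest adjusted p in each direction. For each gene shown the 2 control points lie closer to each other than to the mutant point.

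Chemokines and cytokines of TM8 did not move one way. Of 13 members tested 7 were higher and 2 lower by edgeR, beside 1.97% and 1.61% of all genes tested. The median log2 change of the list was 0.61. In male-typed cells *Ccl7* and *Il11*, which are among the 7, turned sign and *Cxcl2* lost its call. *Ccl2*, the monocyte chemokine MCP-1, was at 3029, 3348 and 11600 (1.86 ± 0.13, adjusted p = 9.03e-06), and in 56.2%, 61.4% and 77.4% of cells. Its neighbour on the chromosome *Ccl7*, a ligand of CCR2 and CCR3, was at 898, 877 and 1822 (1.04 ± 0.16, adjusted p = 0.00373), but its log2 change was -0.14 in male-typed cells. *Ccl11*, the next gene along, was at 3156, 2749 and 1005 (-1.55 ± 0.17, adjusted p = 0.000374). The 3 genes lie in a row on the plus strand of chromosome 11 (GRCm38, chr11:82035571-82037453, chr11:82045712-82047525 and chr11:82057823-82062955). The first and second were thus higher and the last lower in the counts summed over mutant TM8 cells.

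*Cxcl5*, a neutrophil chemokine, was at 113, 168 and 349 (log2 change 1.31 ± 0.24, adjusted p = 0.0104), and *Cxcl2*, another of that kind, at 2615, 2629 and 3998 (0.61 ± 0.14, adjusted p = 0.0369). *Cxcl2* was lost with equal numbers of cells, in male-typed cells, with RLE size factors and with DESeq2. *Csf1*, the macrophage growth factor, was at 79.6, 90.2 and 159 (0.90 ± 0.21, adjusted p = 0.0409). *Il33*, a nuclear alarmin released by stromal cells, was at 211, 231 and 63.3 (-1.80 ± 0.24, adjusted p = 0.00132). Leukocyte markers in TM8 summed to levels of 0.371, 0.411 and 0.792 over 8 genes, and of the 4 tested 0 passed edgeR's or DESeq2's adjusted threshold and 1 had an unadjusted p under 0.05.

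Of 10 interferon-stimulated genes in at least 25% of TM8 cells, 5 (*Isg15*, *Ifih1*, *Gbp2*, *Ifitm3* and *Rtp4*) were above TM6, TM7 and TM9 in all 3 libraries and 5 were not, beside 12.7% of all genes so detected. Detection in TM8 was itself the filter, so the count is a description. *Isg15*, a ubiquitin-like modifier, was at a level of 32.7, 24.4 and 36.5, and *Ifitm3*, a membrane protein that blocks virus entry, at 64.8, 54.2 and 67.5. With genotype 3 of 14 rose, beside 1.97% of all genes tested, the other 11 did not pass, and the list's median log2 change was 0.49. *Ifit3*, which binds viral RNA complexes with its relatives, was at 386, 338 and 1577 CPM (2.12 ± 0.17, adjusted p = 3.42e-05). *Ifit1*, a sensor of uncapped RNA, was at 672, 672 and 1681 (1.32 ± 0.16, adjusted p = 0.000714). *Rsad2*, viperin, was at 134, 78.5 and 252 (1.25 ± 0.28, adjusted p = 0.0321), a call that DESeq2 and male-typed cells did not give.

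The promoters of these 3 genes are printed because interferon acts through a short element, the ISRE, whose core repeats GAAA. The motif searched was GAAANNGAAA on either strand, in 250 bases before to 50 after the RefSeq start (GRCm38.p6), and a script found it in all 3. The stretches around the matches are written 5′ to 3′ on the gene's strand, with the matched bases in capitals.
Ifit1: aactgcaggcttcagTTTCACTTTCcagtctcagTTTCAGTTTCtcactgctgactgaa
Ifit3: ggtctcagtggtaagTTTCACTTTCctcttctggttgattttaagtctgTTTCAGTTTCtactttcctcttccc
Rsad2: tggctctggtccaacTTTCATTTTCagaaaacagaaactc
*Ifit1* (chr19:34640770-34640828, plus strand) had 2 matches, starting 104 and 85 bases before the start. *Ifit3* (chr19:34583358-34583431, plus strand) had 2, at 156 and 122 bases, and *Rsad2* (chr12:26456548-26456587, minus strand) had 1, at 120 bases. Of the 12 list members with a promoter, 9 held the motif in at least 1 promoter, against 3.99% of 27025 genes counted in the same way. By single promoters the share was 3.44% of 32851. *Isg15*, *Ifitm3*, *Gbp2* and *Ifih1* also held it and were not called with genotype. A match is a description and not a shown site of binding.

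Of 9 class I histocompatibility genes tested, 6 did not pass and 3 fell: *H2-Q6*, *H2-Q7* (log2 change -1.80, a call lost in male-typed cells and with DESeq2) and *H2-D1*, a classical class I gene, at 3239, 2016 and 1309 (-1.01 ± 0.24, adjusted p = 0.0454). *H2-D1* did not pass with DESeq2 or RLE size factors, and the controls were further apart than control 2 and the mutant. *B2m*, the shared light chain, was at a level of 8.94, 9.28 and 11.5 and did not pass. In complement, beside 1.97% of all genes tested, 2 of 9 tested genes rose. Of these *C4b*, a component of the classical pathway, was at 27.9, 78.9 and 315 (2.55 ± 0.40, adjusted p = 0.0042), which DESeq2 did not call. *C1ra*, a protease of the classical pathway, was at 55.7, 46.2 and 99.5 (0.97 ± 0.24, adjusted p = 0.047), a call lost with DESeq2 and in male-typed cells.

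The retinoid list had a median log2 change of -0.14. Beside 1.97% and 1.61% of all genes tested, 2 of its 14 members rose and 1 fell. Beside *Rbp4*, these were *Cyp26a1*, which degrades retinoic acid, at 29.8, 83.3 and 202 (1.83 ± 0.41, adjusted p = 0.0342), and *Crabp2*, which carries retinoic acid to the nucleus, at 29.0, 26.9 and 73.7 (1.4 ± 0.26, adjusted p = 0.0117). Neither passed with DESeq2 or with TM8 and TM9 summed, and *Crabp2* did not pass in male-typed cells. *Rdh10* and *Aldh1a2*, which make retinoic acid in sequence, did not pass. Their levels were 5.90, 6.00 and 4.80 and 1.38, 1.29 and 1.82.

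Among 11 tested genes of PDGF signalling and vessel tone, 1 rose and 3 fell, beside 1.97% and 1.61% of all genes tested. The list's median log2 change was -0.72. *Kcnj8* is described above. *Rgs5*, a regulator of G protein signalling in pericytes, was at 49.0, 53.1 and 5.17 CPM (-3.29 ± 0.45, adjusted p = 0.00176), and did not pass in male-typed cells. *Notch3*, the Notch receptor of mural cells, was at 85.5, 81.1 and 25.9 (-1.69 ± 0.29, adjusted p = 0.00801). *Pdgfa*, the ligand of PDGFRA, was at 70.2, 60.7 and 151 (1.21 ± 0.22, adjusted p = 0.0102), but its change was 0.05 in male-typed cells. *Rgs5*, *Kcnj8* and *Notch3* are also pericyte markers, and the 7 pericyte markers together summed to 5.57, 4.35 and 1.26 per 10000. Pericyte marker sums in TM7 were 12.9, 10.9 and 4.58.

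Of 21 matrix genes tested, 3 rose, 1 fell and 17 did not pass, beside 1.97% and 1.61% of all genes tested that rose and fell. The list's median log2 change was 0.04. *Dcn*, the proteoglycan decorin, was at 4001, 4582 and 7467 (0.80 ± 0.14, adjusted p = 0.00739), and *Eln*, elastin, was the other that rose beside *Spp1* (1.45 ± 0.31, adjusted p = 0.0265), a call lost with DESeq2 and in male-typed cells. *Col10a1*, a short-chain collagen known from hypertrophic cartilage, was at 304, 398 and 128 (-1.45 ± 0.24, adjusted p = 0.00608). The fibrillar collagens *Col1a1* (8.27, 8.33 and 5.71 per 10000), *Col1a2* and *Col3a1* did not pass. Among 14 growth factors *Ptn*, pleiotrophin, rose, at 267, 415 and 1440 CPM (2.08 ± 0.23, adjusted p = 0.000374). *Fgf7* was the 1 that fell, on 1 mutant UMI, and was lost with DESeq2 and in male-typed cells.

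Of 17 tested genes linked to glaucoma, 16 did not pass and 1 fell. This was *Cyp1b1*, a cytochrome P450 whose mutations are a common cause of congenital glaucoma in people, at 352, 390 and 106 (-1.81 ± 0.22, adjusted p = 0.000696). In the neighbours its log2 changes were -1.88 in TM6, -0.91 in TM7 and -2.49 in TM9. Of 16 transcription factors *Nr2f1*, an orphan nuclear receptor, rose (121, 133 and 310, 1.29 ± 0.19, adjusted p = 0.00319), and *Tcf21* fell.

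The remaining lists had few calls. Of 12 immediate early and 8 heat shock genes, 0 passed edgeR's or DESeq2's adjusted threshold, and 3 and 2 had an unadjusted edgeR p under 0.05. Of 11 glycolysis and hypoxia genes *Slc2a1*, the glucose transporter GLUT1, rose (142, 136 and 284, 1.03 ± 0.19, adjusted p = 0.0119) and *Hilpda* fell (438, 469 and 225, -1.01 ± 0.20, adjusted p = 0.0158). The call on *Slc2a1* was lost with DESeq2. Of 15 BMP, TGF-beta and Wnt genes *Dkk2*, a Wnt antagonist, rose (15.3, 34.2 and 105, 2.07 ± 0.37, adjusted p = 0.00945). Of 14 proteases and inhibitors *Mmp3* rose and *Adamts1*, which cleaves versican, fell (1379, 1511 and 747, -0.95 ± 0.17, adjusted p = 0.0115). In angiopoietin signalling *Angpt1* fell and the other 2 genes tested did not pass. By count the chemokine list had the most calls (7 and 2 of 13), and no other list of 11 or more genes had over 3 in a direction. The lists were chosen with earlier results of these data known, so this order is a description only.

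**Figure D4:**
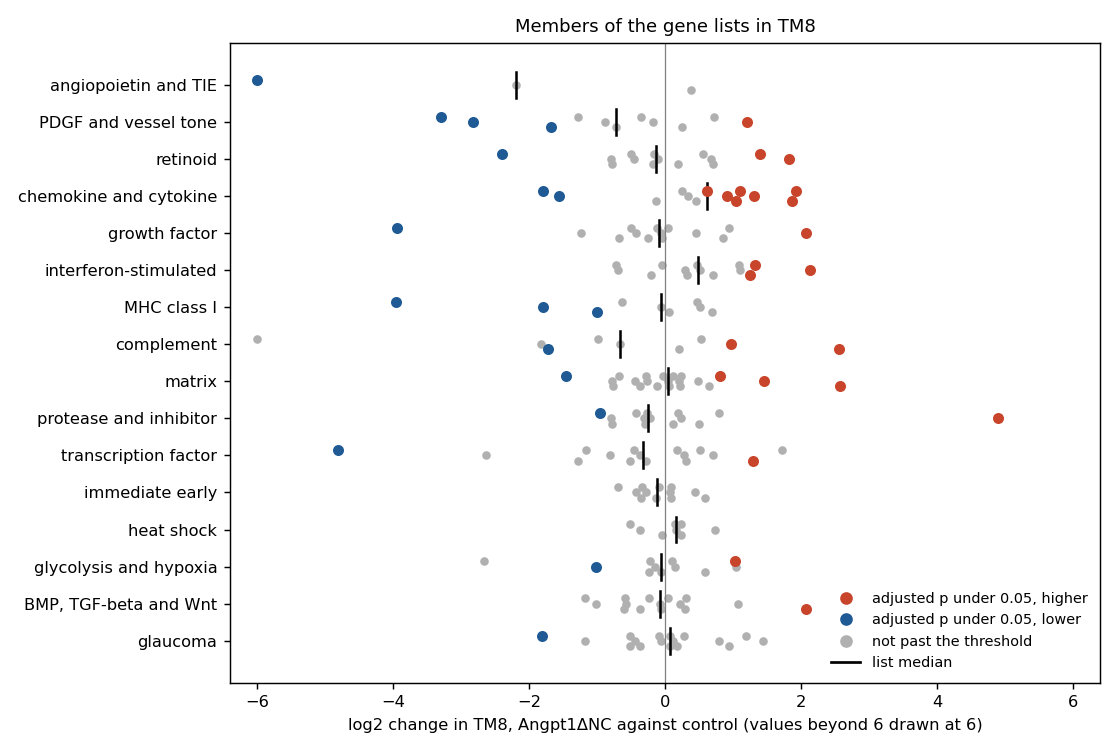
Log2 change of each tested member (points, horizontal axis: mutant minus control, values beyond 6 in size drawn at 6) for 16 gene lists, with members past an adjusted p of 0.05 by edgeR marked by colour (red higher, blue lower) and the list's median as a black bar. The chemokine and cytokine list holds the most genes that rose, 7 of 13, and the median of that list is 0.61. The lists were chosen with earlier results of these data known, so their order is a description.

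Lastly, TM8 was compared with its neighbours for the genotype change itself. Of 3054 genes with enough counts in all 4 clusters, 54 (1.77%) changed more upward (or fell less) in TM8 than in the mean of TM6, TM7 and TM9, and 17 (0.557%) more downward (or rose less), by limma at an adjusted p under 0.05. The unit is the log2 CPM of TM8 minus that mean, in control 1, control 2 and *Angpt1*ΔNC, and the change is mutant minus control. *Ccl2* stood at 0.52, 0.79 and 2.40 (change 1.74 ± 0.12, adjusted p = 0.00118). It rose in TM9 (log2 change 1.26), but in TM6 and TM7 the values were -0.79 and -0.26 and did not pass. *Spp1* stood at -0.49, -0.69 and 0.81 (change 1.4 ± 0.10, adjusted p = 0.00167). As levels, *Spp1* was at 11.9, 14.4 and 69.4 in TM8, at 11.3, 20.7 and 33.4 in TM6, at 7.17, 7.91 and 19.9 in TM7 and at 63.3, 61.3 and 100.3 in TM9. TM9 was thus highest in every library, and TM8 lay above TM7 in each.

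*Ccl11* had the smallest p, at 2.18, 2.15 and 4.81 (change 2.64 ± 0.10, adjusted p = 8.04e-05). It fell in TM8 but less than in its neighbours, and mutant TM6 held 0 UMIs of it. Against TM7 and TM9 alone the change was 0.71 and passed. *Ccl7* stood at 0.23, 0.27 and 1.78 (change 1.53 ± 0.09, adjusted p = 0.000989), but the change was 0.26 against TM9 alone and did not pass. *Col10a1* stood at 0.97, 1.24 and 3.52 (change 2.41 ± 0.19, adjusted p = 0.00206), and against TM7 alone the sign turned (-0.32). In the list of chemokines and cytokines 6 of 11 members changed more upward and 0 more downward, beside 1.77% and 0.557% of all genes tested. The 6 were *Ccl2*, *Ccl7*, *Ccl11*, *Cxcl1*, *Cxcl5* and *Il33*. Of these *Ccl11* and *Il33* fell in TM8 itself (log2 changes -1.55 and -1.80), so their upward difference is a smaller fall.

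Downward, *Cst3*, the protease inhibitor cystatin C, stood at 0.34, 0.43 and -0.45 (change -0.83 ± 0.08, adjusted p = 0.00524). In TM8 itself it was at 7134, 7197 and 3927 CPM, whereas the neighbours' log2 changes were 0.15, -0.03 and -0.40 and did not pass. The log2 change of *Cst3* in TM8 by edgeR was -0.87, a call lost in male-typed cells (-0.38). *Rbp4* stood at 1.29, 0.98 and -0.18 (change -1.32 ± 0.17, adjusted p = 0.0165), and against TM7 alone the sign turned to 0.95. *Igfbp3* stood at 1.78, 2.04 and 0.58 (change -1.34 ± 0.20, adjusted p = 0.0239). Its own log2 changes were -3.50 in TM8, -4.49 in TM6 and -0.49 in TM9, of which those in TM6 and TM9 did not pass, and it fell in TM7 (-1.99, adjusted p = 0.00549). Against TM9 alone the difference was -3.45, and against TM7 alone -1.44. *Gsn*, the actin-severing protein gelsolin, stood at 0.48, 0.62 and -0.12 (change -0.67 ± 0.10, adjusted p = 0.0239), although its change within TM8 did not pass (adjusted p = 0.425). *Ddx3y* stood at 0.53, 0.62 and -0.77 (change -1.34 ± 0.16, adjusted p = 0.0142). The clusters differed in sex makeup in the mutant library, where *Xist* was found in 80.6% of TM8 cells, 75.3% of TM7, 60.9% of TM9 and 32.0% of TM6 cells, and its part in the other differences was not tested.

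**Figure D5:**
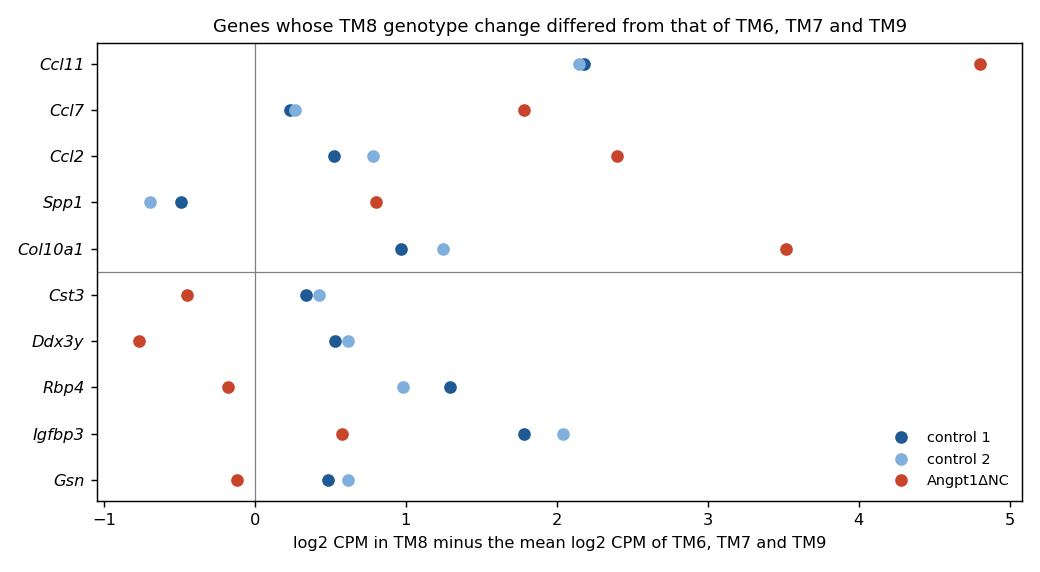
Log2 CPM of TM8 minus the mean of TM6, TM7 and TM9 (horizontal axis) in each library, for the 5 genes with the smallest adjusted p in each direction. The control points lie together and the mutant point lies to the right for *Ccl11*, *Ccl7*, *Ccl2*, *Spp1* and *Col10a1* and to the left for the other 5.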

How the data were processed

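Single cells of the limbal and iridocorneal angle region were measured in 3 droplet (10x) libraries. The authors deposited raw UMI counts of 31053 genes per called cell, made with Cell Ranger on mm10 (version 2.1.1 in the submitters' notes, 3.0.2 in the matrix header), and 2 tables with their cluster label, of unit other, for each kept cell. Per the paper's methods they kept cells with at least 200 genes, at least 1000 UMIs and at most 10% mitochondrial UMIs, removed doublets with scDblFinder, integrated with Seurat 3.1.3 and reclustered TM-related cells in 18 components. The integrated values in those tables were not used.

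Barcodes with the TM8 label were matched to each library's counts. The members and gene lists were chosen with earlier results of these data known. Levels are UMIs per 10000, averaged over cells. Counts were summed per library and tested with edgeR 4.0.16 (quasi-likelihood, TMM, filterByExpr, 1 residual degree of freedom, R 4.3.3), so the lone mutant pool was assumed to vary like the controls, and p-values measure only the spread between pools. The SE was the log2 change over the root of F. The difference from TM6, TM7 and TM9 was tested with limma 3.58.1 (trend). As first designed it made too many false calls on simulated counts, so precision weights (dispersion 0.02) and a minimum of 10 expected counts per cluster sum were added. DESeq2 1.42.0 was an alternative. On simulated data edgeR recovered 11.2% of 2-fold and 64.1% of 4-fold genotype changes, and limma 50% and 93.65% of differences, so 2-fold changes can be missed.

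Genes were named by rule: 15 with the highest ratio to the highest neighbour (in at least 25% of TM8 cells of every library, 0.1 added), 10 with the lowest ratio to the lowest neighbour (in at least 25% of a neighbour's cells), 10 in each direction of the genotype test (smallest adjusted p, past a log2 change of 1, outside the control range), 5 in each direction of the difference test, and members of the lists. Promoters came from a RefSeq table of GRCm38.p6, gene positions from GRCm38. Alternatives were DESeq2, RLE size factors, no filter, equal cell numbers, male-typed cells, TM8 with TM9, single neighbours, other pseudocounts or prior counts, thinned depth and each control left out. Strand of counting is not given in the sources used here. A few genes that these rules name are not reported here.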

Additional observations from a re-analysis of the deposited data

Results flagged for a closer look

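For 10 genes the genotype change in TM8 differed from the mean change in TM6, TM7 and TM9 by the limma test of the difference itself, with the smallest adjusted p in each direction. Upward differences, in log2 units, were 2.64 for *Ccl11*, 1.53 for *Ccl7*, 1.74 for *Ccl2*, 1.4 for *Spp1* and 2.41 for *Col10a1*. Downward ones were -0.83 for *Cst3*, -1.34 for *Ddx3y*, -1.32 for *Rbp4*, -1.34 for *Igfbp3* and -0.67 for *Gsn*. In all 10 the mutant value lay outside both control values, as the choice of these genes makes likely. All rest on 1 mutant pool.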

How the results depend on the processing

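No paired analysis was possible because the labels carry no replicate numbers that pair control and mutant pools. Genes higher and lower in mutant TM8 (189 and 155) numbered 66 and 56 with DESeq2, 325 and 404 without the filter on low counts, 837 and 885 with TM8 and TM9 summed and 105 higher in male-typed cells, and 238 were lower with equal cell numbers. Differences from the neighbours (54 upward, 17 downward) numbered 225 and 112 against TM9 alone, 214 and 117 against TM7 alone, 144 and 60 against TM7 and TM9, 84 and 38 with a prior count of 0.5, and 8 and 2 without the filter. Signs turned for *Esm1* (-0.64), *Ccl7* (-0.14) and *Il11* (-0.15) in male-typed cells, *Pdgfrb* (-0.40) with TM8 and TM9 summed, and *Col10a1* (-0.32) and *Rbp4* (0.95) against TM7 alone. The cause was not tested, beyond fewer cells or genes where the setting itself leaves them. Of 55 named genes 17 lost their call with DESeq2, 11 in male-typed cells, 7 with RLE size factors, 5 with TM8 and TM9 summed and 4 with equal cell numbers. Without the filter *Ddx3y*, *Rbp4*, *Igfbp3*, *Gsn* and *Pdgfrb* lost their difference.

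The control and mutant shares of TM8 were 19.7% and 7.97% of TM1 to TM11, 36.4% and 22.0% of TM6 to TM9, 8.86% and 7.12% for TM8 with TM9, 5.79% in controls at 3000 UMIs or more, and 1.06% of male-typed mutant cells. The control *Angpt1* share was 23.5% and 12.9% with cells thinned to 2000 and 1000 UMIs and 14.8% at 2 or more UMIs. It was 0 in the mutant in each, and 0.207% with TM9 added. With a pseudocount of 1, 1 gene was 2-fold over every neighbour. Leaving out a control gave control shares of 6.02% to 6.51%, *Angpt1* shares of 38.2% to 41.5%, 137 to 138 genes higher and 128 to 134 lower past a log2 change of 1 (146 and 139 in full). All 189 and 155 kept their direction, as did 51 to 54 of 54 and 17 of 17 differences, which the choice of these genes from the same libraries makes likely. Genes above all neighbours numbered 250 to 458 and below 127 to 195 with a library left out (458 and 195 without *Angpt1*ΔNC), and 2 genes stayed 2-fold higher. The counts above and below cannot fall in this setting, since agreement is then asked of fewer libraries. With 155 mutant cells, a count of 0 allows up to 3.88 CPM.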
